A study of Mus musculus with 3 samples.

Results

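Id1, Id2, Id3, Id4, Hes1, Hes3, Hes5, Hes6, Hey1 and Hey2 encode helix-loop-helix proteins best known as brakes on differentiation, and open chromatin around these 10 genes was described in mouse oligodendrocyte progenitor cells. The genes were taken by name, and a site was assigned to a gene when it touched the annotated gene or the 20000 bp on either side. A site is a stretch of peaks from any library that overlap by at least 1 bp. The 10 genes are members of a set of 21883 annotated protein-coding genes, and their windows held 84 of 182865 sites. No site fell in the windows of 2 of these genes.

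Chromatin was profiled by ATAC-seq, in which a transposase cuts and tags accessible DNA. There were 3 libraries, 1 per group, from C57BL/6 pups at postnatal day 4 to 7. The groups were Seh1cKO cells after 1 day of triiodothyronine (T3, 60 nM), wild-type control cells after the same 1 day, and wild-type control cells at the progenitor stage, whose label reads DO and was taken as day 0. Seh1 belongs to the nuclear pore. The Cre line that made the conditional knockout is not given in the sources used. In all groups the cells came from forebrain cortex by immunopanning for O4 after cells binding anti-GalC had been removed, and they were first grown with PDGF-AA, CNTF, bFGF and NT3. The switch to T3 also withdrew PDGF-AA, bFGF and NT3, so hormone and growth factor withdrawal cannot be told apart. Each library used 50000 cells. No animal, litter or batch is named, there are no replicates, and no difference between groups could be tested. The intervals given are exact 95% intervals. Those of pileups and ratios cover counting error of fragments only, and duplicate fragments were kept, so they may be too narrow. Those of shares treat sites as independent draws. None covers differences between animals or preparations, since each group has 1 library.

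Id proteins carry a helix-loop-helix domain without the basic region that contacts DNA, and they hold E proteins such as Tcf3, Tcf4 and Tcf12 away from partners such as Olig2. Hes and Hey proteins keep a basic region, bind DNA and repress transcription with Groucho co-repressors of the Tle family. Id genes are well-known targets of BMP and Smad signalling, and Hes1, Hes5, Hey1 and Hey2 are well-known targets of Notch through the factor Rbpj. In oligodendrocyte progenitors both pathways are known to hold back differentiation. Hes6 is the exception among the genes taken, since it is known to oppose Hes1.

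Promoter sequence was available for 6 of the 10 genes, Id2, Id3, Id4, Hes5, Hes6 and Hey2, with 7 entries because Hes6 has 2. The sequences are from RefSeq on GRCm38.p6, which shares its coordinates with mm10, and each covers the 250 bases before an annotated transcription start. The 4 printed here are those that carry the core of the Rbpj binding motif (TGGGAA) or a GC-rich element bound by Smad proteins (GGCGCC), in capitals, and each lies under a peak in every library. They run 5′ to 3′ on the gene's own strand.
Hes5, chr4:154960673-154960922, plus strand: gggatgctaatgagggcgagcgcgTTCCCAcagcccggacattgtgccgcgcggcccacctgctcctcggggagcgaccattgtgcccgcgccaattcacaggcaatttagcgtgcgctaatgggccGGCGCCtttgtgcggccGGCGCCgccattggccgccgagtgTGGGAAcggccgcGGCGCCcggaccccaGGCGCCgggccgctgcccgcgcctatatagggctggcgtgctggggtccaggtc
Hey2, chr10:30842784-30843033, minus strand: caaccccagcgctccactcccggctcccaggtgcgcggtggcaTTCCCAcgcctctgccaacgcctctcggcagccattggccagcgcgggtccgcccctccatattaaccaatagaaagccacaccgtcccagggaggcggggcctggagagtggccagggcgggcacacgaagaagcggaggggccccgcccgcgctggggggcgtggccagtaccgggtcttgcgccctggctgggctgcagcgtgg
Id2, chr12:25096093-25096342, minus strand: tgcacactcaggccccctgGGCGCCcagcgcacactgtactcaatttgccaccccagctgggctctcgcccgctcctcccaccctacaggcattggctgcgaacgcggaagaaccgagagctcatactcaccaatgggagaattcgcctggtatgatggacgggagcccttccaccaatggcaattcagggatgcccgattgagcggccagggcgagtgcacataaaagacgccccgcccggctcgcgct
Id4, chr13:48260866-48261115, plus strand: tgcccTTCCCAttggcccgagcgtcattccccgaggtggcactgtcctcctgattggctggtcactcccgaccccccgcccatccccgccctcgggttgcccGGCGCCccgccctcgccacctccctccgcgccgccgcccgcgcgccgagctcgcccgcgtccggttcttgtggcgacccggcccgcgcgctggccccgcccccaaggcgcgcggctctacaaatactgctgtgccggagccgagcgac

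Both motifs were searched on both strands, where TGGGAA reads TTCCCA on the other strand and GGCGCC reads the same. The Hes5 promoter held 2 copies of TGGGAA, with first bases at positions -226 and -82 from the transcription start, and 4 copies of GGCGCC, at -123, -106, -69 and -54. The Hey2 promoter held 1 TGGGAA at -207 and no GGCGCC, the Id2 promoter 1 GGCGCC at -231 and no TGGGAA, and the Id4 promoter 1 TGGGAA at -245 and 1 GGCGCC at -148. TGGGAA was thus in 3 of 7 entries and in 21.6% of 32851 RefSeq promoters of the same length, and GGCGCC was in 3 of 7 entries and in 9.59% of promoters. The E box CANNTG, the site of many helix-loop-helix proteins, was in 5 of 7 entries and 66.2% of promoters. The N box CACNAG, associated with Hes proteins, was in 2 of 7 entries and 36.7% of promoters. No copies of different motifs overlapped within these entries, and a match to these letters is a description of sequence, not a measured binding site.

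All 7 promoter entries were touched by a peak in Seh1cKO cells, 6 in control cells at day 1 and 7 in control progenitors. Of all RefSeq promoters 37.6%, 40.9% and 40.1% were touched in Seh1cKO, control day 1 and progenitor cells, and 35% in all 3 libraries. The exception was the upstream start of Hes6, where no control day 1 peak reached the 250 bases. The promoters of these genes were rich in GC and CpG. Their GC content ran between 62.8% and 75.6%, with a median of 52.4% over all promoters, and their ratio of observed to expected CpG between 0.51 and 1.05, with a median of 0.37.

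The Seh1cKO library held 10845533 fragments, the control day 1 library 18260883 and the progenitor library 23403600. The lowest pileup called at any site, counted in fragments over the summit of a peak, was 6 in the Seh1cKO, 8 in the control day 1 and 9 in the progenitor library. The pileup needed rises with the local background, so a site not called may still be open, also above these lowest levels. Pileups are given per 1000000 fragments of the library (FPM). The lowest called was 0.553 FPM in Seh1cKO cells, 0.438 in control day 1 cells and 0.385 in progenitors. Over all sites called in both libraries, the median log2 ratio was -0.14 for Seh1cKO over control day 1 cells and 0.42 for control day 1 cells over control progenitors, and ratios of single sites are best read against these shifts. Among marker genes, a peak within 1000 bp of an annotated gene end was present in Seh1cKO, control day 1 and progenitor cells at 9, 10 and 10 of 12 oligodendrocyte lineage genes, at 9, 9 and 9 of 10 astrocyte genes, at 6, 10 and 10 of 12 neuronal genes, at 4, 5 and 5 of 10 endothelial and mural genes, and at 2, 2 and 4 of 10 microglial and macrophage genes. Over all protein-coding genes the shares were 56.7%, 63.4% and 62.7%. The part of other cell types in the values below was not tested, and fewer cells with an open site cannot be told apart from less signal per cell. The Seh1l gene had a peak at its end in every library, at 4.33 FPM in Seh1cKO cells, 3.83 in control day 1 cells and 3.29 in control progenitors, which is no check of the knockout, since no source used here says which exons were deleted.

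The ends of these genes were open in all 3 libraries at 9 of the 10 genes. Over all protein-coding genes 53.9% had a site called in all 3 libraries within 1000 bp of an annotated end. Hes3 was the exception, without a call in Seh1cKO cells. The 10 genes had 16 gene-end sites, of which 11 were called in all 3 libraries, and 68 sites away from their ends, of which 18 were. Together 29 of 84 sites were shared by all 3 libraries, against a background of 17.9% of all sites, 12 were called in 2 libraries and 43 in 1. Shares of all sites called in 2 libraries or in 1, and shares split by gene ends, are not given here.

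Sites found in a single library were weak. Their median −log10 q, the authors' score for a peak, was 2.90 and their highest 15.4, whereas sites found in all 3 libraries had a median highest score of 29.4. Of the 29 sites with a score of at least 10 in some library, 24 were called in all 3, beside 74.7% of all sites in that class. Over the genome 44210 of 182865 sites were called in Seh1cKO cells, 116149 in control day 1 cells and 106158 in control progenitors. Shares of all sites called in 1 library alone are not given here. The single-library sites of these genes numbered 3 in Seh1cKO cells, 24 in control day 1 cells and 16 in control progenitors. Their pileup lay between 1.11 and 2.03 FPM in Seh1cKO cells, between 0.438 and 2.08 in control day 1 cells, and between 0.427 and 0.940 in control progenitors.

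**Figure D1:**
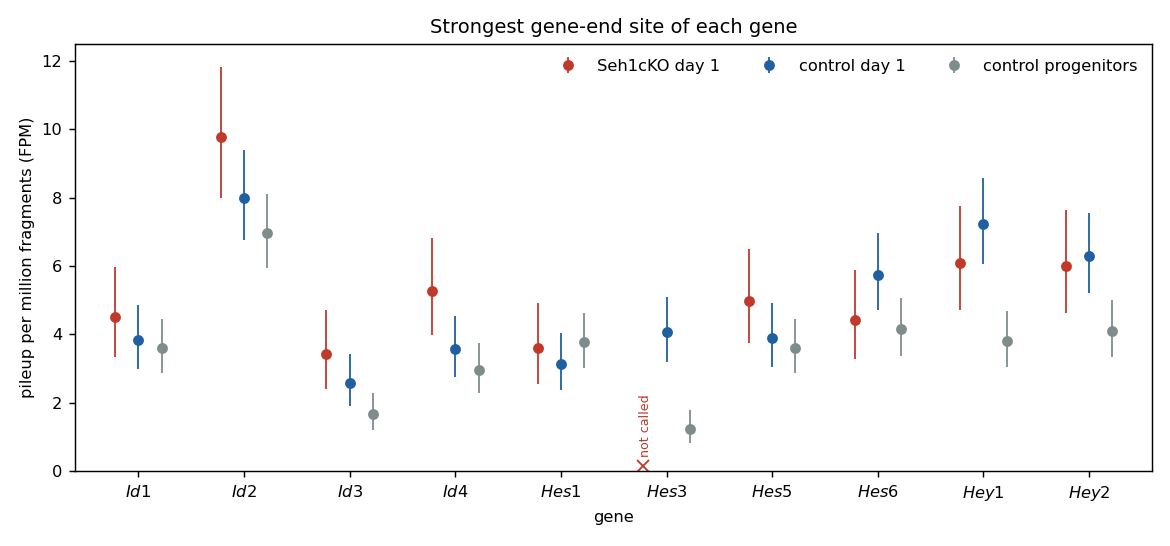
Pileup per 1000000 fragments, FPM (vertical axis) at the strongest gene-end site of each gene (horizontal axis) in Seh1cKO day 1 (red), control day 1 (blue) and control progenitor (grey) cells, 1 library each; bars are exact 95% counting intervals. Id2 stands highest in every library, between 6.96 and 9.77 FPM, and the site at Hes3 has no call in Seh1cKO cells (cross).

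Id2 had the tallest gene-end site of the 10 genes in all 3 libraries, and at every Id gene the strongest end site was, in FPM, tallest in Seh1cKO cells and lowest in control progenitors. By fold enrichment over local background Seh1cKO cells were again above control day 1 cells at all 4, by a log2 of 0.28 to 0.74, but control day 1 cells were below progenitors at all 4, by -0.38 to -0.25, so that step of the order turns with the scaling. In FPM the intervals of both ratios included 1 at 3 of the 4 genes. The Id2 site (chr12:25095798-25096550), which overlaps the promoter printed above, had 9.77 FPM in Seh1cKO cells, 8.0 in control day 1 cells and 6.96 in control progenitors. The Seh1cKO over control day 1 ratio was 1.22 (0.943 to 1.58) and the control day 1 over progenitor ratio 1.15 (0.912 to 1.44). Both intervals include 1. Where 2 ratios are given without names further on, the first is Seh1cKO over control day 1 and the second control day 1 over progenitors, each with its interval in brackets.

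Id4 had a single strong site, 1532 bp wide over its start (chr13:48260595-48262126). It had 5.26 FPM in Seh1cKO cells, 3.56 in control day 1 cells and 2.95 in control progenitors. The Seh1cKO over control day 1 ratio of 1.48 (1.02 to 2.14) was the only ratio between the day 1 libraries at an Id end whose interval left out 1, and the control day 1 over progenitor ratio was 1.21 (0.847 to 1.72). The site joins 2 progenitor peaks, and with their pileups summed that log2 ratio was -0.28 in place of 0.27. Id1 had 2 end sites, and they ran in opposite orders between the day 1 libraries. The site 728 bp below the gene (chr2:152734991-152735523) had 4.52, 3.83 and 3.59 FPM in Seh1cKO, control day 1 and progenitor cells, with a Seh1cKO over control day 1 ratio of 1.18 (0.801 to 1.72). The site over the gene's lower end (chr2:152735938-152736493) had 2.31 FPM in Seh1cKO cells, 3.34 in control day 1 cells and 1.71 in control progenitors, with ratios of 0.690 (0.415 to 1.12) for Seh1cKO over control day 1 and 1.95 (1.29 to 2.99) for control day 1 over progenitors. At the second site the control day 1 over progenitor interval left out 1 but included 1.34, the median ratio over all sites. By fold enrichment control day 1 cells were also above progenitors there (log2 0.55, with a median of 0.16 over all sites).

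Id3 was the Id gene with the most sites shared by all libraries, 5 of 7. Its end site (chr4:136143594-136144070) had 3.41 FPM in Seh1cKO cells, 2.57 in control day 1 cells and 1.67 in control progenitors, with ratios of 1.33 (0.838 to 2.08) and 1.54 (0.989 to 2.43). Its strongest site was not at the gene but 3034 bp below it (chr4:136140348-136140788), and was tallest in control day 1 cells. It had 2.77 FPM in Seh1cKO cells, 3.83 in control day 1 cells and 1.71 in control progenitors, and control day 1 cells exceeded progenitors 2.24-fold in FPM (1.5 to 3.40), with a log2 of 1.17 in FPM and 0.40 by fold enrichment. The Seh1cKO over control day 1 ratio was 0.722 (0.454 to 1.12). Id2 also had a site seen in Seh1cKO cells alone (chr12:25092760-25092899, 900 bp below the gene) at 2.03 FPM. It lies 31 bp from a control day 1 peak and 37 bp from a progenitor peak of the neighbouring site. A site 2432 bp above Id2 (chr12:25098524-25099035), named after its values were seen, had 2.67, 4.16 and 2.78 FPM in Seh1cKO, control day 1 and progenitor cells. Here Seh1cKO cells were at 0.642 (0.404 to 0.997) of control day 1 cells, the opposite order to the Id2 end site.

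Across the 4 Id genes 27 sites were found, 15 in Seh1cKO cells, 19 in control day 1 cells and 19 in control progenitors, and 11 in all 3. Over the genome the numbers were 44210, 116149 and 106158 of 182865 sites, with 17.9% in all 3. All 14 Id sites shared by the control libraries had a higher pileup in FPM in day 1 cells than in progenitors, but their median log2 of 0.31 is below the shift of 0.42 over all sites, and 6 of the 14 lay above that shift. Id4 had the fewest sites, 3, and Id1 the most, 9.

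**Figure D2:**
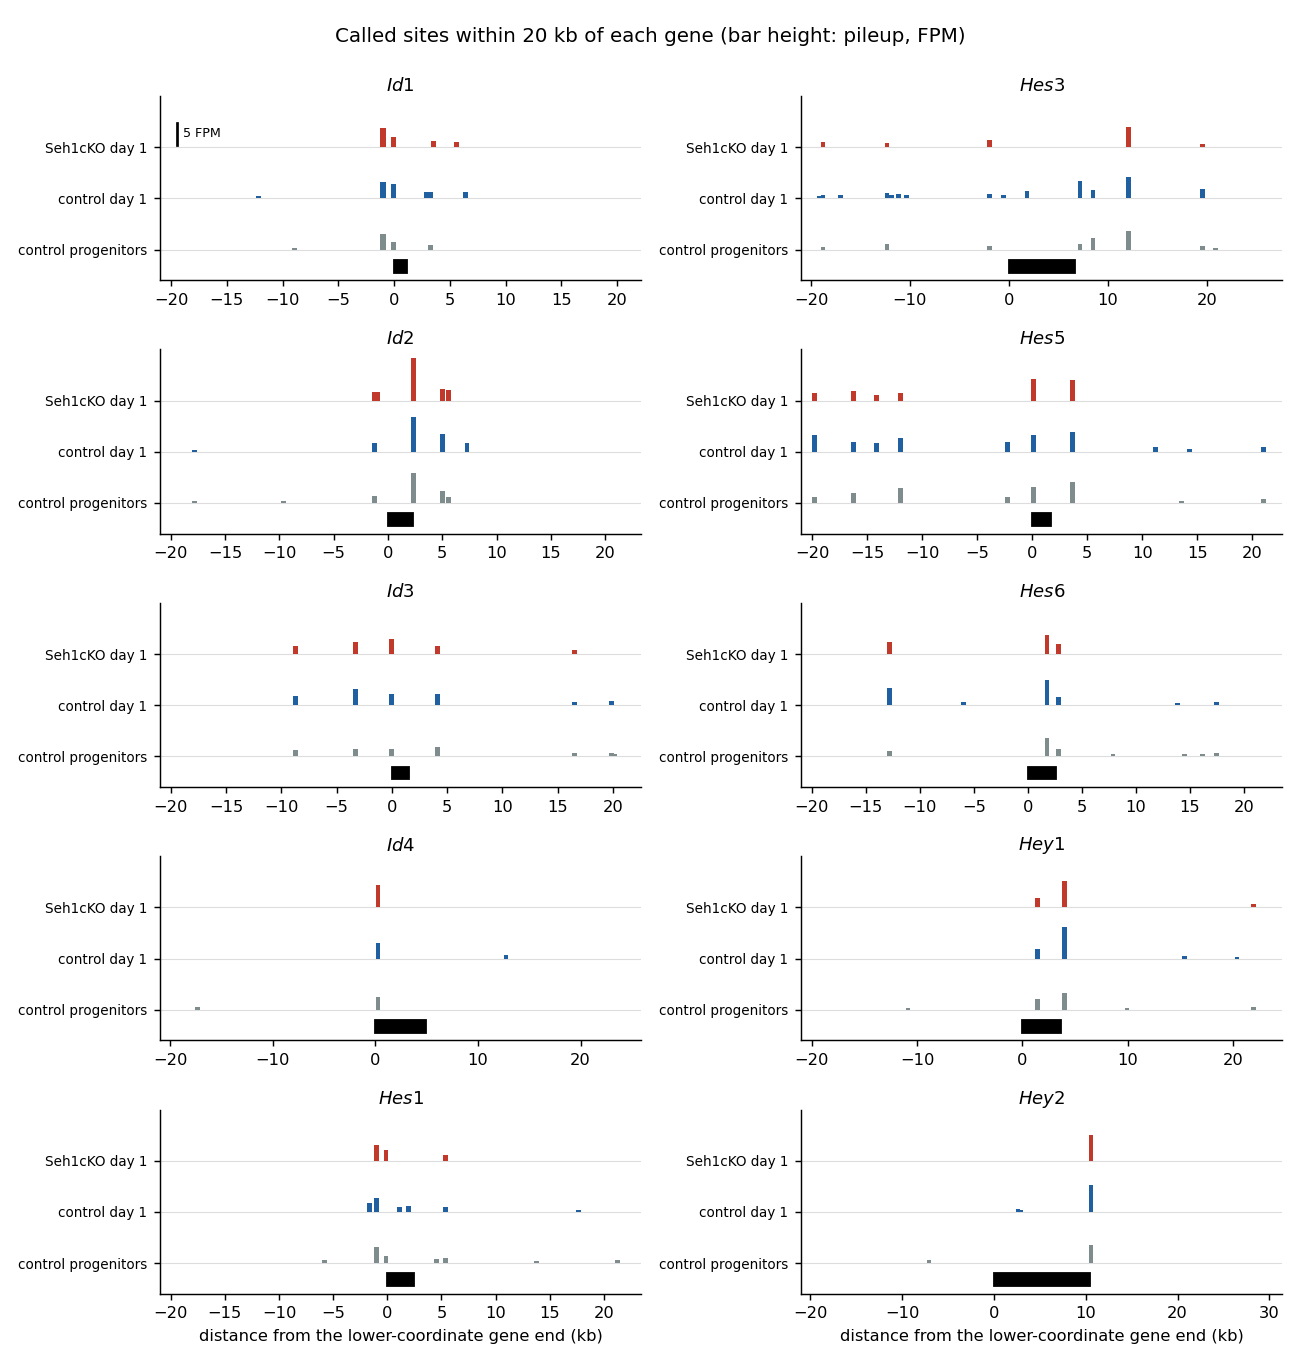
Called sites of the 10 genes by distance from the gene's lower-coordinate end in kb (horizontal axis), with a row each for Seh1cKO day 1, control day 1 and control progenitor cells; bar height is pileup in FPM (scale bar, 5 FPM), bars have 1 drawn width and black boxes are genes. The tall bars recur in all 3 rows except at Hes3, where the Seh1cKO row has none beside the gene's upper end, and the bars seen in 1 row are short.

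Hes3, a Hes gene of neural progenitors, was the gene without an end site called in all 3 libraries. It had an end site 292 bp above its higher coordinate (chr4:152292203-152292738) at 4.05 FPM in control day 1 cells and 1.24 in control progenitors, a ratio of 3.27 (2.1 to 5.21), and it was not called in Seh1cKO cells. The 74 fragments of control day 1 cells correspond to 44.0 at the depth of the Seh1cKO library. There 15 would have been needed for a call, and the nearest Seh1cKO peak lay 4263 bp away. The progenitor level corresponds to 13.4 fragments at the Seh1cKO depth, where 12 would have been needed. Here and below, the fragments needed come from the background of the library that called the site, scaled to the depth of the other. The background of the library without the call was not used, so the number needed differs with the library it is taken from. By fold enrichment the control day 1 site was again above that of progenitors (log2 1.23).

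Other positions at Hes3 also lacked a call in Seh1cKO cells. A site inside the gene (chr4:152286815-152287311) was called only in control day 1 cells, at 1.75 FPM, or 19.0 fragments at the Seh1cKO depth where 9 were needed. A site 1614 bp above the gene (chr4:152293525-152293942) had 2.03 FPM in control day 1 cells and 2.69 in control progenitors, or 22.0 and 29.2 fragments at the Seh1cKO depth, where 16 and 13 were needed. The control day 1 over progenitor ratio there was 0.753 (0.488 to 1.15), an interval that includes 1. A further end site (chr4:152284652-152284797), at the end of the neighbour Gpr153, was called only in control day 1 cells at 0.821 FPM, and its 8.91 fragments at Seh1cKO depth were under the 9 needed.

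The strongest site in the Hes3 window was called in all 3 libraries. It lies 5090 bp above the gene at an end of Icmt (chr4:152297001-152297707) and had 4.70 FPM in Seh1cKO cells, 4.98 in control day 1 cells and 4.19 in control progenitors, with ratios of 0.944 (0.656 to 1.34) and 1.19 (0.885 to 1.60). Another site within Icmt (chr4:152304596-152305072), named after its values were seen, had 0.830, 2.25 and 0.855 FPM in Seh1cKO, control day 1 and progenitor cells. Its ratios were 0.370 (0.158 to 0.772) for Seh1cKO over control day 1 and 2.63 (1.5 to 4.73) for control day 1 over progenitors. The Hes3 window contains parts of 4 other protein-coding genes, Acot7, Gpr153, Icmt and Rnf207, and 7 of its 15 sites lie within 1000 bp of an end of one of them, so sites there cannot be assigned to Hes3 alone.

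Hes5, a Notch target that keeps neural progenitors undifferentiated, was open at its start in all 3 libraries. The end site (chr4:154960420-154961161), over the promoter printed above, had 4.98 FPM in Seh1cKO cells, 3.89 in control day 1 cells and 3.59 in control progenitors. Its ratios were 1.28 (0.882 to 1.85) for Seh1cKO over control day 1 and 1.08 (0.778 to 1.5) for control day 1 over progenitors, and the intervals include 1. The strongest site by mean pileup lay 1436 bp above the gene at an end of Pank4 (chr4:154963808-154964694), with 4.70, 4.49 and 4.91 FPM in Seh1cKO, control day 1 and progenitor cells, and ratios of 1.05 (0.723 to 1.5) and 0.914 (0.680 to 1.22).

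The sites with the widest ratios at Hes5 lay below the gene. The farthest (chr4:154940557-154941110), 19516 bp below the gene and named after its values were seen, had 1.66 FPM in Seh1cKO cells, 3.94 in control day 1 cells and 1.45 in control progenitors. Control day 1 cells exceeded progenitors 2.71-fold (1.78 to 4.21), and Seh1cKO cells were at 0.421 (0.236 to 0.713) of control day 1 cells. By fold enrichment the log2 ratios were -0.79 for Seh1cKO over control day 1 and 0.71 for control day 1 over progenitors, with the signs of the FPM ratios. A site 2112 bp below Hes5 (chr4:154958303-154958514) had 2.35 FPM in control day 1 cells and 1.32 in progenitors, a ratio of 1.78 (1.09 to 2.92). It was not called in Seh1cKO cells, where the control day 1 level would give 25.5 fragments and 14 were needed. A site 13990 bp below (chr4:154946386-154946636) had 1.38 FPM in Seh1cKO cells and 2.03 in control day 1 cells, a ratio of 0.683 (0.348 to 1.27), and was not called in progenitors. A site 11582 bp below (chr4:154948292-154949044), also named after its values were seen, had 1.75, 3.18 and 3.55 FPM in Seh1cKO, control day 1 and progenitor cells, and a Seh1cKO over control day 1 ratio of 0.552 (0.310 to 0.940).

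Hes1, the broadly expressed Notch target and repressor, was the only one of the 10 genes whose strongest end site was lower in FPM in control day 1 cells than in progenitors. That site (chr16:30063942-30064743), 614 bp below the gene, had 3.60 FPM in Seh1cKO cells, 3.12 in control day 1 cells and 3.76 in control progenitors, with ratios of 1.15 (0.746 to 1.76) and 0.830 (0.584 to 1.17). A second site 22 bp below the gene (chr16:30065126-30065335) was called at 2.58 FPM in Seh1cKO cells and 1.62 in progenitors but not in control day 1 cells. The Seh1cKO and progenitor levels would give 47.1 and 29.6 fragments at the control day 1 depth, where 21 and 18 were needed. A site called in the shallower Seh1cKO library is almost bound to pass at that depth, so the value from Seh1cKO cells decides nothing. Another end site (chr16:30067208-30067416), in the gene, was called in control day 1 cells alone at 1.42 FPM. Of the 11 Hes1 sites 8 were found in 1 library and 2 in all 3 libraries, where 17.9% of all sites were called in all 3. The share of all sites called in 1 library is not given here, so the 8 cannot be read as particular to Hes1. The nearest control day 1 peak to the site at 22 bp lay 718 bp away.

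Hes6, the family member that opposes Hes1, had a site at each of its annotated starts in all 3 libraries, although at the upstream start the control day 1 peak did not reach the promoter's 250 bases. The stronger site (chr1:91412767-91413720) had 4.43 FPM in Seh1cKO cells, 5.75 in control day 1 cells and 4.14 in control progenitors, with ratios of 0.770 (0.535 to 1.09) for Seh1cKO over control day 1 and 1.39 (1.04 to 1.85) for control day 1 over progenitors. The upstream site (chr1:91413965-91414613) had 2.21, 1.97 and 1.75 FPM in Seh1cKO, control day 1 and progenitor cells, with ratios of 1.12 (0.641 to 1.93) and 1.13 (0.699 to 1.81). A site 12304 bp below Hes6, at an end of Ilkap (chr1:91398107-91399179) and named after its values were seen, had 2.67 FPM in Seh1cKO cells, 3.89 in control day 1 cells and 1.24 in control progenitors. Control day 1 cells exceeded progenitors there 3.14-fold (2.01 to 5.01), and the Seh1cKO over control day 1 ratio was 0.688 (0.430 to 1.07).

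Across the 4 Hes genes 46 sites were found, 17 in Seh1cKO cells, 36 in control day 1 cells and 30 in control progenitors, and 15 in all 3. In Seh1cKO, control day 1 and progenitor cells Hes3 contributed 5, 14 and 8 of these, Hes5 contributed 6, 10 and 8, and Hes6 and Hes1 each 3, 6 and 7. Over the genome 44210, 116149 and 106158 of 182865 sites were called in these libraries, with 17.9% in all 3.

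Hey1 and Hey2, Notch targets that act as repressors with Hes proteins, had the tallest end sites after Id2 in both day 1 libraries. By the tallest peak in FPM the control day 1 over progenitor intervals left out 1. The median of that ratio over all sites, 1.34, lay below the interval at Hey1 and inside that at Hey2. By fold enrichment the control day 1 over progenitor log2 ratio was 0.16 at Hey1 and -0.09 at Hey2, so at Hey2 the sign turns with the scaling. The Hey1 end site (chr3:8666612-8668066) had 6.09 FPM in Seh1cKO cells, 7.23 in control day 1 cells and 3.80 in control progenitors, and the control day 1 over progenitor ratio was 1.90 (1.44 to 2.52). This site joins 2 progenitor peaks, and with their pileups summed the log2 ratio was 0.30 in place of 0.93, outside that interval. The Hey2 end site (chr10:30842409-30843385), over the promoter printed above, had 5.99, 6.30 and 4.10 FPM in Seh1cKO, control day 1 and progenitor cells, with a control day 1 over progenitor ratio of 1.54 (1.16 to 2.03). Seh1cKO over control day 1 ratios were 0.842 (0.617 to 1.14) at Hey1 and 0.952 (0.691 to 1.30) at Hey2, and both intervals include 1. A site inside Hey1 (chr3:8664619-8664944), named after its values were seen, was at 2.21, 2.25 and 2.48 FPM in Seh1cKO, control day 1 and progenitor cells. The 8 other Hey sites were called in 1 or 2 libraries, at no more than 0.738 FPM.

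Id2 led the order of end sites in each library, and the intervals of most neighbours in the order overlapped. In Seh1cKO cells the order was Id2, Hey1, Hey2, Id4, Hes5, Id1, Hes6, Hes1 and Id3, and the intervals of neighbours overlapped except between Id2 and Hey1. In control day 1 cells it was Id2, Hey1, Hey2, Hes6, Hes3, Hes5, Id1, Id4, Hes1 and Id3, and all neighbours overlapped. In control progenitors it was Id2, Hes6, Hey2, Hey1, Hes1, Hes5 with Id1, Id4, Id3 and Hes3, with gaps between Id2 and Hes6 and between Id4 and Id3. These are summit heights in FPM, which do not depend on gene length.

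Seh1cKO cells at day 1 were first set against control cells at day 1, which compares knockout and control cells after the start of differentiation. There is no library of Seh1cKO progenitors. A difference already present before T3 therefore cannot be told apart from one that arose after it. The strongest end sites of Id1, Id2, Id3, Id4, Hes1 and Hes5 were higher in FPM in Seh1cKO cells, those of Hes6, Hey1 and Hey2 were lower, and only at Id4 did the interval leave out 1. End sites of Hes1 and Hes3 were the end sites of control day 1 cells without a Seh1cKO call. Of the 62 control day 1 sites, 30 (48.4%, 35.5 to 61.4) were also called in Seh1cKO cells, where the background was 31.1% of all control day 1 sites and 34.9% of those within 20000 bp of a gene. Of the 36 Seh1cKO sites, 30 (83.3%, 67.2 to 93.6) were also called in control day 1 cells, beside 81.8% of all Seh1cKO sites and 84.7% of those near genes. For control day 1 sites with a −log10 q of at least 10 the share was 23 of 26 (88.5%, 69.8 to 97.6), beside 80% of all such sites and 81.8% of those near genes. For Seh1cKO sites of that score it was 15 of 15, beside 99.5% and 99.6%. The 3 strong control day 1 sites without a Seh1cKO call were the end site and the inner site of Hes3 and the site 2112 bp below Hes5, described above.

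Of the 32 control day 1 sites not called in Seh1cKO cells, 19 would have passed the pileup needed there at an unchanged level and background. At that background this is an upper limit because a minimum peak length was not applied. The same count over all sites was not made, so it is not known whether 19 of 32 is particular to these genes. No site of 30 called in both was at least 2-fold higher in Seh1cKO cells, beside 1.72% of all sites, and 2 were at least 2-fold lower, beside 10.4%. Relative to the median of all sites these counts were 0, beside 3.27%, and 2, beside 7.68%. Those 2 were the sites in Icmt and far below Hes5, of which only that in Icmt was past 2-fold by fold enrichment. The median log2 ratio in FPM was -0.05 over the 30 sites and -0.14 over all sites, by fold enrichment 0.015 and -0.24, and 17 of the 30 lay above that median of all sites. It was 0.20 over the 11 gene-end sites and -0.21 over the 19 sites away from ends. Over the strongest end site of each gene the median was 0.24 for 9 genes and 0.01 for all protein-coding genes, none of the 9 was 2-fold higher or lower, beside 1.52% and 1.76% of genes, and 6 lay above the median of all genes.

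Control cells at day 1 were then set against control progenitors, which addresses the first day of differentiation. In FPM 9 of the 10 strongest end sites were higher in control day 1 cells than in progenitors, all but that of Hes1, but 4 of the 10, those of Id3, Hes3, Hey1 and Hey2, lay above the median of all protein-coding genes. Of the 62 control day 1 sites, 37 (59.7%, 46.4 to 71.9) were also called in progenitors, beside 38.9% of all control day 1 sites and 43.3% of those near genes. Of the 56 progenitor sites, 37 (66.1%, 52.2 to 78.2) were also called at day 1, beside 42.6% and 47.7%. Among sites scoring at least 10 in −log10 q, 24 of 26 day 1 sites (92.3%, 74.9 to 99.1) were called in progenitors, beside 88.4% and 89.8%, and 24 of 24 progenitor sites at day 1, beside 96.5% and 97.1%. The 2 strong day 1 sites without a progenitor call were inside Hes3 and 13990 bp below Hes5, and at the progenitor depth they would have had 41 and 47.4 fragments where 14 and 20 were needed. All 25 control day 1 sites not called in progenitors passed the pileup needed there. The progenitor library is the deeper, so a site called at the lower depth is almost bound to pass, and this count decides nothing. Of the 19 progenitor sites not called at day 1, 13 passed. The same counts over all sites were not made.

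Of the 37 sites called in both control libraries, 5 were at least 2-fold higher at day 1, beside 14.5% of all sites, and 0 were 2-fold lower, beside 0.739%. The 5 were the Hes3 end, the site in Icmt, the far Hes5 site, the Ilkap site and the Id3 site below the gene. By fold enrichment the Hes3 end, the site in Icmt and the Ilkap site were past 2-fold, and the far Hes5 and Id3 sites were not. Relative to the median of all sites, 3 were 2-fold higher, beside 4.92%, and 0 lower, beside 3.87%. The median log2 ratio was 0.21 in FPM, but -0.23 relative to sites called in all 3 libraries and -0.088 by fold enrichment over local background, so its sign depends on the scaling. Over all sites the medians were 0.42 in FPM and 0.16 by fold enrichment, and the median of these genes' sites was below that of all sites on both scales. By family the median was 0.31 for Id, 0.17 for Hes and 0.62 for Hey in FPM, and 0.03, -0.14 and -0.088 by fold enrichment, so Hes and Hey change sign. At the strongest gene ends the median was 0.37 over 10 genes and 0.48 over all protein-coding genes. Only Hes3 was 2-fold higher, beside 9.24% of genes, and none was 2-fold lower, beside 0.202%.

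**Figure D3:**
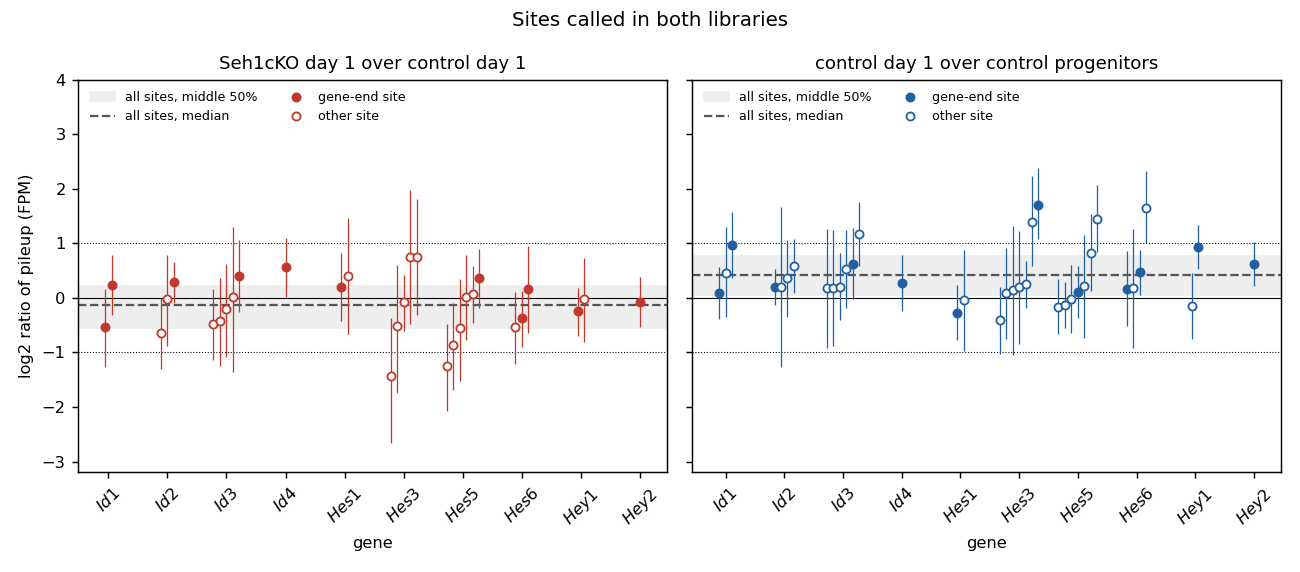
Log2 ratio of pileup in FPM (vertical axis) at each site called in both libraries, by gene, for Seh1cKO over control day 1 (left, 30 sites) and control day 1 over control progenitors (right, 37 sites); filled points are gene-end sites, bars exact 95% counting intervals, the dashed line the median of all sites (-0.14 and 0.42) and the grey band their middle 50%. The lowest points on the left belong to Hes3 and Hes5 (-1.44 and -1.25), and the highest on the right to Hes3 and Hes6 (1.71 and 1.65).

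The share of control day 1 sites called in another library was higher for stronger sites, at these genes and over all sites. Control day 1 sites with a −log10 q below 3 were also called in Seh1cKO cells at 1 of 14 (7.14%, 0.181 to 33.9), beside 2.74% of all sites of that strength. From a score of 20 the share was 17 of 18 (94.4%, 72.7 to 99.9), beside 91.5%. Toward progenitors the shares were 2 of 14 (14.3%, 1.78 to 42.8), beside 5.73%, and 18 of 18, beside 95.7%. Each class of these genes' sites had an interval that included the share of all sites in both directions shown.

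**Figure D4:**
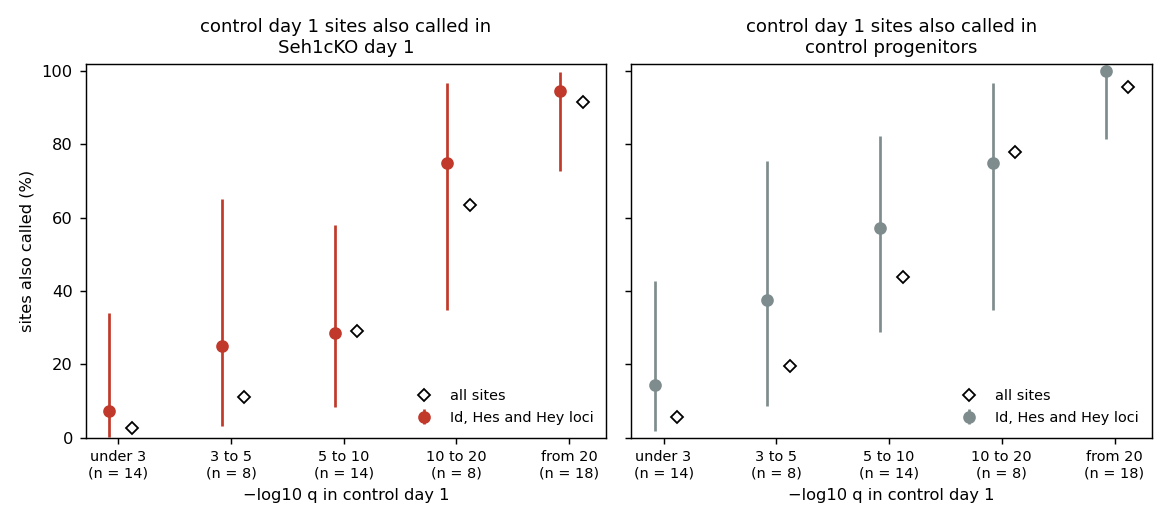
Share of control day 1 sites (vertical axis, %) also called in Seh1cKO day 1 cells (left) and in control progenitors (right), by −log10 q in control day 1 (horizontal axis, classes of 8 to 18 sites); filled points are sites of the 10 genes with exact 95% intervals and open diamonds all sites. Shares climb with strength, to 94.4% and 100% in the strongest class, and every interval spans the diamond beside it.

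At 20737 bp and 20916 bp, just outside the windows, lay a site near Hey1 at 0.513 FPM in progenitors alone and a site near Hey2 at 1.48, 2.08 and 1.37 FPM in Seh1cKO, control day 1 and progenitor cells. Just inside lay sites at 19131 bp from Hes3, at 0.657 FPM in control day 1 cells alone, and at 19134 bp from Hes5, at 1.10 FPM in control day 1 cells and 0.940 in progenitors. The far Hes5 site at 19516 bp was the last inside.

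Most other genes of the pathways also had end sites in every library. Of 25 Notch pathway genes 20 had an end site in all 3 libraries, of 23 BMP pathway genes 20, and of 17 partner and related helix-loop-helix genes and Groucho co-repressors 13, which are 80%, 87% and 76.5%, beside 53.9% of all protein-coding genes. In Seh1cKO, control day 1 and progenitor cells the Notch genes with an end site numbered 21, 23 and 23, the BMP genes 20, 22 and 21, and the partner genes 13, 14 and 15, beside 56.7%, 63.4% and 62.7% of all protein-coding genes. For the counts past 2-fold that follow, the shares over all protein-coding genes were 1.52% higher and 1.76% lower in Seh1cKO over control day 1 cells, and 9.24% higher and 0.202% lower in control day 1 cells over progenitors. Rbpj itself had no gene-end site in any library within 1000 bp of its annotated ends, and the same held for Psen2, Bmp5 and Tle2. Peaks elsewhere in these genes are not reported here.

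Of Notch genes with an end site in both day 1 libraries, 0 of 21 were 2-fold higher and 1 was 2-fold lower in Seh1cKO cells, with a median log2 of 0.15 (0.01 over all protein-coding genes). The lowest was Mfng, a Fringe enzyme that modifies Notch, at 1.01 FPM in Seh1cKO cells and 2.19 in control day 1 cells (ratio 0.463, 0.214 to 0.919). The next lowest was the ligand gene Jag2, at 0.738 FPM in Seh1cKO and 0.931 in control day 1 cells (ratio 0.792, 0.296 to 1.94). The highest were Dtx1, a Notch regulator, at 2.77 FPM in Seh1cKO and 1.48 in control day 1 cells (ratio 1.87, 1.07 to 3.27) and Rfng, another Fringe, at 1.66 FPM in Seh1cKO and 0.986 in control day 1 cells (ratio 1.68, 0.826 to 3.43). Between control day 1 cells and progenitors 3 of 22 Notch genes were 2-fold higher and 0 lower, with a median log2 of 0.37 (0.48 over all protein-coding genes). The highest were Ncstn, a subunit of gamma-secretase, at 3.40 FPM in control day 1 cells and 1.62 in progenitors (ratio 2.09, 1.37 to 3.22) and Adam10, the protease that cuts Notch first, at 6.90 FPM in control day 1 cells and 3.33 in progenitors (ratio 2.07, 1.55 to 2.78). Dtx1, the other gene past 2-fold, had 1.48 FPM in control day 1 cells and 0.726 in progenitors (ratio 2.04, 1.07 to 3.98). The lowest was the ligand gene Dll3 at 0.757 (0.448 to 1.26).

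Of BMP genes 0 of 20 were 2-fold higher and 1 was 2-fold lower in Seh1cKO cells than in control day 1 cells, with a median log2 of -0.01. The lowest were Smad1, which carries BMP signals to the nucleus, at 1.75 FPM in Seh1cKO and 3.61 in control day 1 cells (ratio 0.485, 0.275 to 0.818), and Smad9 at 0.561 (0.256 to 1.14). The highest were the ligand genes Bmp6 at 1.56 (0.677 to 3.59) and Bmp7 at 1.17 (0.712 to 1.92). Between control day 1 cells and progenitors 1 of 21 BMP genes was 2-fold higher and 0 lower, with a median log2 of 0.36. The highest were the receptor gene Acvr2b, at 5.09 FPM in control day 1 cells and 2.39 in progenitors (ratio 2.13, 1.51 to 3.02), and the inhibitory Smad6 at 1.92 (0.980 to 3.87). Bmp6 at 0.854 (0.402 to 1.76) and Bmp7 at 0.861 (0.571 to 1.29) were the lowest.

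Heyl, the remaining Hey gene, had the lowest Seh1cKO over control day 1 ratio and the highest control day 1 over progenitor ratio of the partner list. Its end site (chr4:123249081-123249623) had 1.2 FPM in Seh1cKO cells, 3.78 in control day 1 cells and 1.03 in control progenitors. The Seh1cKO over control day 1 ratio was 0.317 (0.161 to 0.579) and the control day 1 over progenitor ratio 3.68 (2.29 to 6.13). Hes7 was the other partner gene at least 2-fold higher at day 1 than in progenitors, at 3.40 FPM in control day 1 cells and 1.5 in progenitors (ratio 2.27, 1.48 to 3.54). Of 13 partner genes 1, Heyl, was 2-fold lower in Seh1cKO cells and 0 were 2-fold higher, with a median log2 of -0.15, and 2 of 13 were 2-fold higher and 0 lower at day 1 over progenitors, with a median log2 of 0.59. Olig1 was next lowest in Seh1cKO over control day 1 cells at 0.808 (0.558 to 1.15). Olig2, at 5.07 FPM in Seh1cKO and 4.60 in control day 1 cells (ratio 1.10, 0.770 to 1.57), and Tcf12 at 1.08 (0.564 to 2.03) were highest. At day 1 over progenitors the lowest was Tcf4 at 1.06 (0.723 to 1.55).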

How the data were processed

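Each library was made from 50000 cells with a commercial transposase kit, per the labels' protocols. The submitters' processing notes name Bowtie2, SAMtools, MACS2 and mm10. Per the file headers, the caller was MACS 2.1.2_dev, run once per library on paired-end fragments with duplicates kept and no control library. Its q cutoff was 0.05, its gap limit 50 bp, its shortest peak 100 bp and its local background window 10000 bp. Amplified copies can therefore add to a pileup. A shift of reads for the transposase cut is not stated. The deposited tables hold, per the file headers, the coverage signal (pileup) at each summit, the −log10 p-value and −log10 q-value, and a fold enrichment, a ratio to local background. Both −log10 column names were damaged. Their order and a recomputed Poisson p, within 0.01 for 99.9% of peaks in each table, identified them.

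Peaks overlapping by at least 1 bp were joined into sites, with the tallest pileup per library, per 1000000 fragments of the header (FPM). Positions are 1-based, with genes from RefSeq on GRCm38.p6. This table has no strand or exons, so gene ends are windows of 1000 bp around both annotated ends. Ratios have exact conditional binomial intervals, pileups exact Poisson and shares Clopper-Pearson intervals at 95%. A difference of 2-fold is a description. There is 1 library per group, so no test was run. The script was checked on simulated data. Fragment totals of 10845533 to 23403600 set the precision.

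The genes, lists and rules were chosen with earlier results of these data known. Sites named by rule are the strongest site of each gene, every gene-end site, and every site with −log10 q of at least 10 in a library but not called in all 3, and from each pathway list the 2 highest and 2 lowest genes per comparison, of which some are not reported here. Other sites were chosen after their values were seen and are said to be, apart from those at the window edge. A site with several peaks in a library has the tallest, and their sum is an alternative. No likeness between genes was computed over 3 libraries. Python 3.11.15, pandas 2.3.3, numpy 2.4.6, scipy 1.17.1 and matplotlib 3.10.9 were used.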

Additional observations from a re-analysis of the deposited data

How the results depend on the processing

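Of 177 alternative values for 31 results, 139 stayed within the interval of the main value or, for counts, within 1.5 times, and 38 moved. Intervals of shares and of medians over sites treat the sites as independent. The strongest-site ratio past 2-fold, at Id3, kept its sign. Of 100 alternative log2 values 20 had the other sign, 9 of them outside the interval of the main value. No paired analysis was possible because each group has 1 library. Here a limit on −log10 q was applied to the peaks of every library, whereas the shares of strong sites above limit only the library named first. The share of control day 1 sites also called in progenitors, 59.7%, was 80% with a −log10 q of at least 5, 80.8% with at least 10 and 83.3% with lists of equal length (46113 peaks), where all sites gave 59.8%, 67.4% and 69.3%. The share of progenitor sites also called at day 1, 66.1%, was 88.9%, 87.5% and 81.1%, where all sites gave 75.5%, 83.2% and 69.9%. The share of Seh1cKO sites also called in control day 1 cells, 83.3%, was 100% with a −log10 q of at least 10, where all sites gave 95.8%, and that of control day 1 sites also called in Seh1cKO cells, 48.4%, was 69.4% with lists of equal length, where all sites gave 67.7%. The median log2 ratio of control day 1 cells over progenitors, 0.21, was -0.23 scaled to sites called in all 3 libraries and -0.088 by fold enrichment, where all sites gave 0.16, and that of Seh1cKO over control day 1 cells, -0.05, was 0.10 and 0.015, inside its interval. The 5 sites at least 2-fold higher in control day 1 cells than in progenitors became 2 within 10000 bp, 8 within 50000 bp, 3 with −log10 q of at least 10, by scaling and by fold enrichment, and 10 at 1.5-fold. The 0 lower became 1 within 50000 bp. For Seh1cKO over control day 1 cells, 0 higher became 1 by fold enrichment and 2 at 1.5-fold, and 2 lower became 0 within 10000 bp and with −log10 q of at least 10, 1 with at least 5 and by fold enrichment, and 4 at 1.5-fold. The cause was not tested. Leaving out sites at the ends of other genes was chosen after seeing the data. Depth limits what can be called most in Seh1cKO cells.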
